A study of Rattus norvegicus with 20 samples.

Results

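Immediate early genes are switched on from pre-made transcription factors within minutes of a stimulus, with no new protein needed, and fall again quickly. The 10 studied here in rat kidney are Fos, Fosb, Jun, Junb, Egr1, Ier2, Atf3, Btg2, Dusp1 and Zfp36. They were taken by gene name from both deposited tables and carried between the tables by Ensembl identifier, which found 10 of 10 members among the 32907 genes listed in either table. All 10 also passed the filter on low values in both tables.

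The study measured kidney RNA by bulk sequencing in wild-type adult male Wistar rats, aged 10 to 12 weeks, after 28 days of delivery from an osmotic minipump under the skin. Cyclosporine A, a calcineurin inhibitor used against transplant rejection, was compared with its saline vehicle (n = 4 and n = 4). Tacrolimus, a calcineurin inhibitor of another chemical class given to a target trough of 3.5 ng/ml, was set against its own vehicle, DMSO at 25% mixed with polyethylene glycol at 75% (called DMSO/PEG below, with 6 libraries in either group). RNA came from the entire kidney, so every cell type of the organ is in each library, and fewer cells of a type cannot be told apart from less RNA per cell. The labels give each library as a separate sample of its group, and p-values measure the spread between those samples. Each drug has its own vehicle and its own table, so a difference between the drugs cannot be told apart from one between vehicles or tables.

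As background, the members have linked roles. Fos, Fosb, Jun and Junb are subunits of AP-1, a dimeric transcription factor, and Atf3 is a stress-induced relative that pairs with Jun proteins. Egr1 is a zinc-finger transcription factor induced through serum response factor (SRF), and Ier2 is a small nuclear protein of the same early wave. Btg2 restrains proliferation, Dusp1 is a phosphatase that switches off MAP kinases, and Zfp36 (tristetraprolin) binds AU-rich messages and hastens their decay. In kidney these genes are known to respond to ischaemia and reperfusion, to growth factors and to the handling of tissue before it is frozen. Calcineurin activates NFAT transcription factors by removing phosphate, which both drugs prevent.

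Of the members, 7 of 10 have a promoter in the RefSeq table for the GRCr8 assembly, and 4 of the 5 that hold the SRF-binding CArG box or the full cyclic AMP response element (CRE) are shown here, since many immediate early genes respond through these DNA elements. Each sequence covers 300 bases, from 250 before the start of the gene to 50 after it, written 5′ to 3′ on the strand of the gene. Capitals mark CArG boxes, the CRE and its shorter core TGACG, read from either strand. The fifth, Ier2, is not shown, and neither are the promoters of Fos, Jun and Atf3.
Egr1, GRCr8 chr18:26736828-26737127, plus strand: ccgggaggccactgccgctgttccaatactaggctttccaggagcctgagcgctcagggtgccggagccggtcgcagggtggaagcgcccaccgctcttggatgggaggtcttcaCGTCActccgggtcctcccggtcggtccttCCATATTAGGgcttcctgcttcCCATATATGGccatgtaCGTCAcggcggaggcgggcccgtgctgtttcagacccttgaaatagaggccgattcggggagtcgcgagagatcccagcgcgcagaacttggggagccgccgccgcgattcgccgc
Zfp36, GRCr8 chr1:92799059-92799358, minus strand: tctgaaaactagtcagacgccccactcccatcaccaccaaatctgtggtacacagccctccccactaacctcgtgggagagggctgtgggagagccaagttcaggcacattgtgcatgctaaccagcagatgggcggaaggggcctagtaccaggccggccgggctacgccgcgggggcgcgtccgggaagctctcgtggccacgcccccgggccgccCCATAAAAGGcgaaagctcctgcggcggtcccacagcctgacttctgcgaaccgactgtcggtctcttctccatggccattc
Btg2, GRCr8 chr13:48087641-48087940, minus strand: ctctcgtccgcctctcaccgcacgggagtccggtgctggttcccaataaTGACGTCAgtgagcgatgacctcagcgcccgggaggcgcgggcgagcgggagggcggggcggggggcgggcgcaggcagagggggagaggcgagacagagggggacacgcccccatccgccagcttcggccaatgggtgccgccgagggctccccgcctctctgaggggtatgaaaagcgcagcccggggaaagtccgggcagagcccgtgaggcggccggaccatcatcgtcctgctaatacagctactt
Dusp1, GRCr8 chr10:17184603-17184902, plus strand: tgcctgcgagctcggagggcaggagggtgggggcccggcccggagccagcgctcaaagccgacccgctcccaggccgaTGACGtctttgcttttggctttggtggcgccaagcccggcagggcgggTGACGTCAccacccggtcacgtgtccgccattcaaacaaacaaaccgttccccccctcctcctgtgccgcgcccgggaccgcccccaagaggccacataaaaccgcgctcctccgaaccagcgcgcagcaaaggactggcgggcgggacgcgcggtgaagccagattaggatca

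On both strands, a CArG box was found in 2 of the 7 promoters, Egr1 and Zfp36, and in 1.64% of all 33469 promoters in the table. Egr1 held it at 2 places, CCATATTAGG from −105 to −96 and CCATATATGG from −83 to −74 relative to the start, and Zfp36 held CCATAAAAGG from −32 to −23. The full CRE, TGACGTCA, stood in Btg2, Dusp1 and Ier2, against 1.83% of all promoters. The core TGACG, which every full CRE contains, was in 5 of the 7 (Btg2, Dusp1, Egr1, Ier2 and Junb) and in 21.2% of all. The AP-1 site TGANTCA was in none of the 7 and in 7.33% of all, and TGGAAA, the core of NFAT sites, was in Egr1 and Ier2 and in 22.7% of all. These are matches of letters in a short window, and no binding was measured.

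The libraries of the tables differed before any gene was compared. Assigned fragments numbered 30466238 to 34304757 per library of the cyclosporine A table, and 31670202 to 39358485 per library of the tacrolimus table. Mitochondrial genes took 59.8% ± 7.97 of the fragments with saline (SD, n = 4) and 84.7% ± 4.68 with cyclosporine A (SD, n = 4), leaving 10281534 to 17252606 other fragments per saline library and 2904957 to 6547633 per cyclosporine A library. The other table had a mitochondrial share of 11.9% ± 1.13 with vehicle and 12.4% ± 1.88 with tacrolimus (SD, n = 6 each). The deposited cyclosporine A values are scaled to all fragments, mitochondrial ones included, so their median gene was lower by 0.89 on the log2 scale with the drug. Values were therefore rescaled by the median ratio of all genes (rescaled FPKM), as the tacrolimus table already was, and both versions are given. Kidney markers were present in every group, among them Umod and Slc12a1 of the thick ascending limb, whose summed rescaled FPKM was 277 to 528 with saline and 109 to 213 with cyclosporine A. The 5 urothelium markers summed to 1.62 to 4.14 with saline and 7.19 to 17.6 with cyclosporine A. Slc12a3, the marker of the distal convoluted tubule, had an FPKM of 93.3 to 108 with DMSO/PEG and 29.5 to 56.0 with tacrolimus. The thick ascending limb sum had medians of 2168 and 1884 there, with ranges that overlapped. Adrenal marker sums had medians of 1.12 with DMSO/PEG and 0.469 with tacrolimus, and adipocyte sums 50.2 and 31.7, also with overlap. The part of these markers in the values below was not tested.

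Cyclosporine A replicate 4 stood apart from the other libraries of its group. It had the highest mitochondrial share (90.8%), and its 7 leukocyte markers summed to a rescaled FPKM of 19.4, against 1.37 to 3.05 in the other cyclosporine A libraries and 2.86 to 4.13 with saline. S100a8 and S100a9, genes of neutrophils, had 4.30 and 8.37 there. Its 5 erythrocyte markers summed to 5677, against 557 to 2108 in the rest of its group and 350 to 956 with saline. Kidney marker sums differed there as well. The podocyte sum was 10.4, against 3.75 to 5.38 in the rest of its group. The collecting duct sum was 376, against 99.7 to 180, and the proximal tubule sum 106, against 147 to 293. In the tacrolimus table, vehicle replicate 2 had a leukocyte sum of 71.9, against 24.0 to 28.0 in the other vehicle libraries and 19.6 to 27.7 with tacrolimus, and vehicle replicate 1 had the highest erythrocyte sum, 3335. Tacrolimus replicate 6 stood apart from its group, with a chi-square per degree of freedom of 53.3 to 105.8 against its other libraries, which had 17.6 to 51.5 among themselves. It had the fewest genes detected in its table (17880) and a thick ascending limb sum of 2608, against 1670 to 1929 in the rest of its group.

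With cyclosporine A on rescaled FPKM, all 10 members had a log2 fold change above 0, and none passed an adjusted p of 0.05. Egr1, Fos, Btg2 and Junb had an unadjusted p under 0.05 and had every cyclosporine A library above every saline library. Among all 13466 genes tested, 0.609% were called in either direction and 0.327% as higher, 16.2% had an unadjusted p under 0.05, 50% had a fold change above 0 and 4.81% were higher without overlap. The median log2 fold change of the members was 0.39, and that of all genes tested was −0.00011. Without replicate 4, 1 of 10 members was called, beside 140 of 13870 genes, and 4 of 10 had an unadjusted p under 0.05, beside 2309 genes. Of the members 9 of 10 then lay above 0. With tacrolimus 8 of 10 lay above 0, where 49.8% of 15493 genes did, and none was called, against 0.303%. Egr1 alone had an unadjusted p under 0.05, as did 8.58% of all genes, and no member separated the groups without overlap, as 0.975% did. Without vehicle replicate 3, 4 of 10 members had such a p, beside 1794 of 15591 genes. The members' median with tacrolimus was 0.089, and on leaving out 1 library it ran up to 0.13, with 7 to 10 members above 0. The change with cyclosporine A was above that with tacrolimus for 9 of 10 members, where it was for 50.7% of 13400 genes, and no member's difference was called, against 1.63%. Unless another test is named, values are from limma on log2(FPKM + 1) with Benjamini-Hochberg adjustment over all genes tested, and fold changes on that scale understate low genes.

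Egr1 (ENSRNOG00000019422, rn6 chr18:27657628-27661429, plus strand) gave the highest log2 fold change of FPKM + 1 among the members with either drug. With cyclosporine A that order depended on the scale, since voom on fragments gave 2.20 for Fos and 1.79 for Egr1. Its rescaled FPKM was 0.846, 0.547, 0.402 and 0.812 in the saline libraries and 1.84, 1.96, 1.92 and 4.85 in the cyclosporine A libraries, from 61 to 183 and 110 to 206 fragments. Every cyclosporine A library lay above every saline library. Replicate 4, the library that stood apart in blood and kidney marker sums, was far above the other drug libraries. The ratio of the group means was 4.06, and the log2 fold change of FPKM + 1 was 1.08 (SE 0.23, 95% interval 0.55 to 1.60, limma adjusted p = 0.0748). Without replicate 4 the log2 fold change was 0.83 and the adjusted p 0.0363. The gene was also called when libraries were weighted by their scatter (0.91, adjusted p = 0.0471) and when recovered fragments were fitted with voom (1.79, adjusted p = 0.0192). The adjusted p ran from 0.0137 to 0.182 over all 17 alternatives, so the call depended on the setting.

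With tacrolimus, Egr1 was again higher. Vehicle libraries had a lowest, median and highest FPKM of 2.23, 2.65 and 3.91, and tacrolimus libraries of 3.52, 5.92 and 17.3. Tacrolimus replicate 2 was the only drug library below the highest vehicle library, and replicate 6, which had the highest mitochondrial share of its table (15.9%), held the 17.3. The group means were 2.80 ± 0.63 and 7.36 ± 5.02 (SD, n = 6 each), a ratio of 2.63, and the log2 fold change was 0.99 (SE 0.26, 95% interval 0.42 to 1.56, limma adjusted p = 0.190). Without replicate 6 it was 0.73 with an adjusted p of 0.0816, and no alternative brought the adjusted p under that value. For Egr1 the drugs' log2 fold changes differed by 0.085, cyclosporine A less tacrolimus (95% interval −0.65 to 0.82, adjusted p = 0.941), an interval that spans large differences either way.

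**Figure D1:**
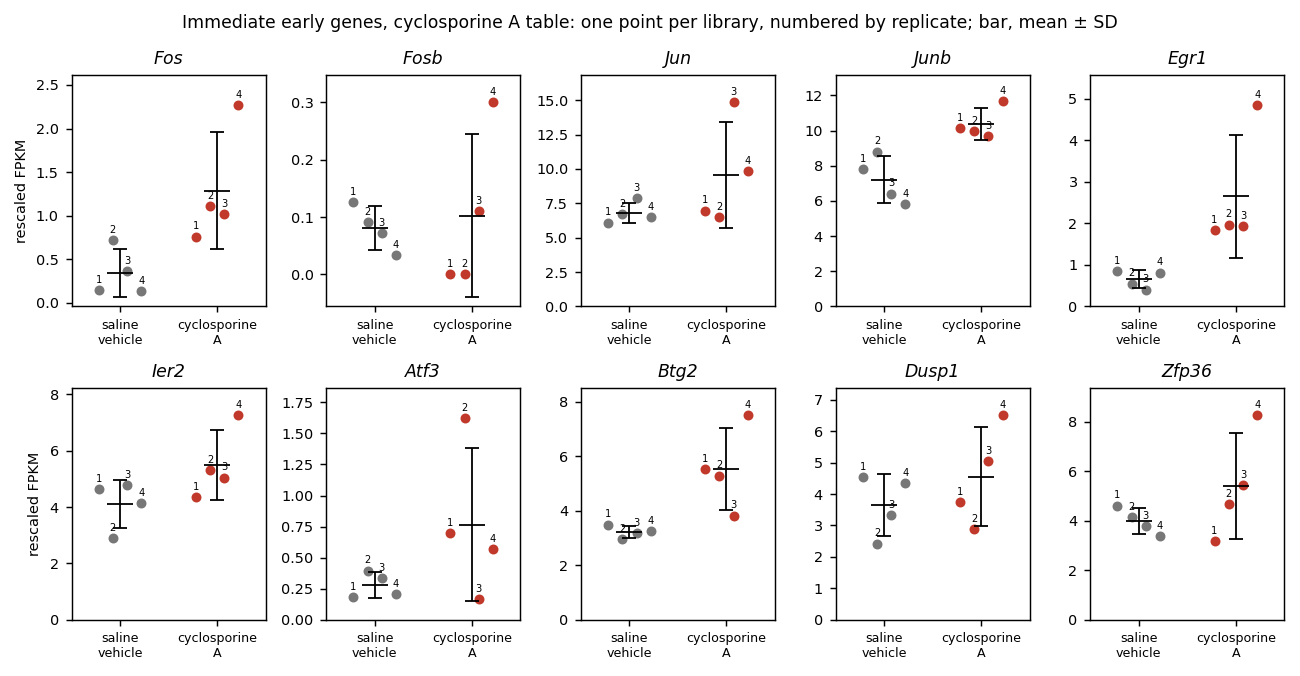
Rescaled FPKM (vertical axis) of the 10 immediate early genes in the saline (grey) and cyclosporine A (red) libraries, 1 point per library with its replicate number and mean ± SD bars. Fos, Junb, Egr1 and Btg2 show no overlap between the groups, and Egr1 runs from 1.84 to 4.85 with cyclosporine A.

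Fos (ENSRNOG00000008015, rn6 chr6:109300433-109303299, plus strand), the name-giving AP-1 subunit, was a low-level gene in both tables. Its rescaled FPKM was 0.146, 0.714, 0.364 and 0.132 with saline and 0.759, 1.11, 1.01 and 2.27 with cyclosporine A. The groups did not overlap although saline replicate 2 came close to the lowest drug library, and 11 to 47 and 23 to 49 fragments stood behind the values. The ratio of the means was 3.80 and the log2 fold change 0.75 (SE 0.21, limma adjusted p = 0.125). That ratio was 6.02 without saline replicate 2 and 2.83 without cyclosporine A replicate 4. Against DMSO/PEG, the lowest, median and highest FPKM were 0.725, 1.06 and 1.72 with vehicle and 0.861, 1.69 and 2.57 with tacrolimus. These ranges overlapped, though tacrolimus replicates 1, 3 and 6 lay above every vehicle library. The log2 fold change was 0.26 (SE 0.16, limma adjusted p = 0.711), or 0.16 without tacrolimus replicate 6.

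Fosb (ENSRNOG00000046667, rn6 chr1:80214494-80221710, minus strand), the close relative of Fos, was at the edge of detection. In the saline libraries it had 30, 13, 12 and 6 fragments, and in the cyclosporine A libraries 0, 0, 9 and 14, where a count of 0 allows up to 3 fragments. At this depth no difference could be shown (log2 fold change 0.021, SE 0.096, limma adjusted p = 0.943), and the sign turned under 4 other settings and without saline replicate 4 or cyclosporine A replicate 4. With tacrolimus the FPKM was 0.0978 to 0.193 in vehicle and 0.149 to 0.232 in drug libraries, with a log2 fold change of 0.062 (SE 0.036, limma adjusted p = 0.708).

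Jun (ENSRNOG00000026293, rn6 chr5:114011189-114014277, minus strand), the main partner of Fos, was among the most abundant members in both tables. Its rescaled FPKM was 6.10, 6.73, 7.85 and 6.51 with saline and 6.97, 6.52, 14.9 and 9.85 with cyclosporine A. Cyclosporine A replicates 1 and 2 lay within the saline range and replicate 3, not replicate 4, was the highest (log2 fold change 0.37, SE 0.22, limma adjusted p = 0.437). Without replicate 3 it was 0.16. Against DMSO/PEG it was 27.6 to 51.0 with vehicle and 29.1 to 42.8 with tacrolimus, medians 31.9 and 35.5. The tacrolimus range lay inside the vehicle range (log2 fold change 0.042, SE 0.14, limma adjusted p = 0.970).

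Junb (ENSRNOG00000042838, rn6 chr19:26092974-26094756, minus strand), an AP-1 subunit that can oppose Jun, had the tightest drug group. Saline libraries had a rescaled FPKM of 7.80, 8.80, 6.42 and 5.82, and cyclosporine A libraries 10.1, 9.96, 9.69 and 11.7. Every drug library lay above every saline library, and the coefficient of variation with cyclosporine A was 8.67%, the lowest of the members there. The ratio of the means was 1.44 and the log2 fold change 0.48 (SE 0.14, limma adjusted p = 0.130). With tacrolimus the values were 26.3 to 41.0, median 30.4, against 21.4 to 35.2, median 26.9, with vehicle (log2 fold change 0.20, SE 0.12, limma adjusted p = 0.717), and the fold change was 0.12 without tacrolimus replicate 4.

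Atf3 (ENSRNOG00000003745, rn6 chr13:109817728-109849632, minus strand), the stress-induced relative, had a coefficient of variation of 80.6% among the cyclosporine A libraries, below that of Fosb alone. Levels in rescaled FPKM were 0.181, 0.395, 0.338 and 0.206 with saline and 0.700, 1.62, 0.164 and 0.571 with cyclosporine A. Replicate 2 was 9.89 times replicate 3, which lay below every saline library (log2 fold change 0.40, SE 0.21, limma adjusted p = 0.382). It was 0.19 without replicate 2 and 0.58 without replicate 3. Tacrolimus libraries ran from 0.682 to 1.17 and vehicle libraries from 0.641 to 1.32 (log2 fold change 0.10, SE 0.087, limma adjusted p = 0.830), and the fold change was 0.067 without vehicle replicate 5 and 0.17 without vehicle replicate 3.

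Ier2 (ENSRNOG00000054344, rn6 chr19:25774143-25775659, minus strand) carries this name in the tacrolimus table only, and both tables class its locus as a pseudogene. In rescaled FPKM it was 2.91 to 4.78 with saline and 4.35 to 7.27 with cyclosporine A, with replicate 4 highest and 2 saline libraries above the lowest drug library (log2 fold change 0.34, SE 0.18, limma adjusted p = 0.373). It was 0.22 without saline replicate 2 and also without cyclosporine A replicate 4. With tacrolimus it was 15.4 to 20.2 against 12.9 to 18.5 (0.15, SE 0.086, limma adjusted p = 0.708).

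Of the feedback genes, Btg2 (ENSRNOG00000003300, rn6 chr13:50913180-50916982, minus strand) separated the cyclosporine A groups most clearly. Its rescaled FPKM was 3.49, 2.97, 3.18 and 3.24 with saline and 5.52, 5.29, 3.82 and 7.50 with cyclosporine A. The saline libraries were nearly level, with a coefficient of variation of 6.69% where counting error alone gives 4.76%, and each drug library was higher. The ratio of the means was 1.72 and the log2 fold change 0.60 (SE 0.17, limma adjusted p = 0.127). With tacrolimus the range of 8.05 to 11.5 lay inside the vehicle range of 7.92 to 12.8 (log2 fold change 0.074, SE 0.13, limma adjusted p = 0.936), and the fold change was 0.023 without vehicle replicate 4 and 0.15 without vehicle replicate 2. Btg2 was the only member whose difference between the drugs had an unadjusted p under 0.05 (0.53, SE 0.21, adjusted p = 0.215 by the limma-based test of the difference), as did 16% of 13400 genes. Without cyclosporine A replicate 4 that difference was 0.39 and no member had an unadjusted p under 0.05.

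Dusp1 (ENSRNOG00000003977, rn6 chr10:16970626-16973418, plus strand) and Zfp36 (ENSRNOG00000058388, rn6 chr1:85380095-85382607 in the cyclosporine A table, plus strand) overlapped between the groups of both drugs. Dusp1 had a rescaled FPKM of 2.42 to 4.53 with saline and 2.89 to 6.51 with cyclosporine A (log2 fold change 0.23, SE 0.23, limma adjusted p = 0.666), and an FPKM of 17.0 to 28.3 with DMSO/PEG and 15.02 to 24.0 with tacrolimus (−0.024, SE 0.14, limma adjusted p = 0.985). Zfp36 had 3.38 to 4.62 with saline and 3.19 to 8.27 with cyclosporine A (0.31, SE 0.22, limma adjusted p = 0.532). Its largest spread lay within the DMSO/PEG vehicle. Vehicle replicates 1 and 2 had an FPKM of 64.8 and 62.4 and the other vehicle libraries 31.1, 23.3, 34.1 and 22.5, while tacrolimus libraries kept to 29.5 to 39.4. Vehicle replicate 1 had the high erythrocyte sum given above (3335) and a leukocyte sum of 28.0. Vehicle replicate 2 had the high leukocyte sum (71.9) and an erythrocyte sum of 1825. Tacrolimus replicate 3 had the highest erythrocyte sum of its group (2570) and a Zfp36 FPKM of 34.7. The part of these sums in the Zfp36 level was not tested. The log2 fold change with tacrolimus was −0.067 (SE 0.24, limma adjusted p = 0.975). With cyclosporine A, leaving out 1 library moved Dusp1 between 0.073 (without cyclosporine A replicate 4) and 0.39 (without replicate 2), and Zfp36 between 0.11 (without replicate 4) and 0.49 (without replicate 1).

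**Figure D2:**
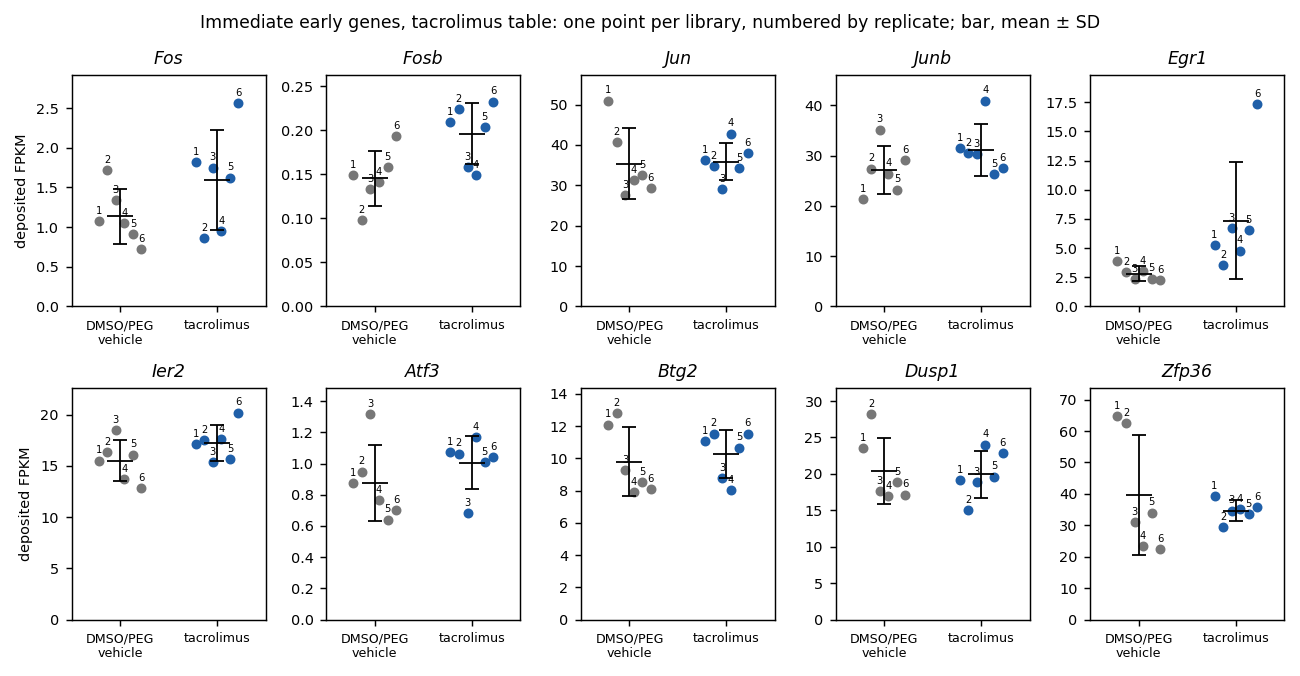
Deposited FPKM (vertical axis) of the 10 genes in the DMSO/PEG vehicle (grey) and tacrolimus (blue) libraries, 1 point per library with its replicate number and mean ± SD bars. The groups overlap for all 10 genes, Egr1 reaches 17.3 in replicate 6, and Zfp36 is 64.8 and 62.4 in vehicle replicates 1 and 2.

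On the deposited scaling, which counts mitochondrial fragments in the depth, the same cyclosporine A libraries gave another picture. The 5 members Jun, Junb, Ier2, Dusp1 and Zfp36 fell, with log2 fold changes of −0.80, −0.71, −0.76, −0.84 and −0.79 and limma adjusted p from 0.0116 to 0.0195. A fall was called for 80.8% of the 13466 genes on that scaling, and the median of all genes was −0.89, so these members moved with the bulk of the genes. Egr1 (0.31, adjusted p = 0.171), Fos (0.26, adjusted p = 0.135) and Atf3 (0.041, adjusted p = 0.831) had values above 0 there, as had 2.47% of all genes, and Btg2 (−0.48, adjusted p = 0.0825) and Fosb (−0.11, adjusted p = 0.290) were not called. On log2(FPKM + 1) all 10 lay above the median gene, but with voom on fragments Fosb was at −2.49 where the median gene was at −1.36. Junb and Zfp36 were lower without overlap, as were 67.8% of all genes. Without cyclosporine A replicate 1, 1 of 10 was called, beside 10245 of 13849 genes, and without saline replicate 1, 2 of 10, beside 9872 of 13627 genes. Without saline replicate 2, 7 of 10 were called, 1 of them higher, beside 11178 of 13785 genes. Array weights also gave 7, 1 of them higher, beside 11327 of 13466 genes. Over 14 alternatives Fos was called higher in 2 (lowest limma adjusted p = 0.0250) and Btg2 lower in 3 (lowest limma adjusted p = 0.0123).

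**Figure D3:**
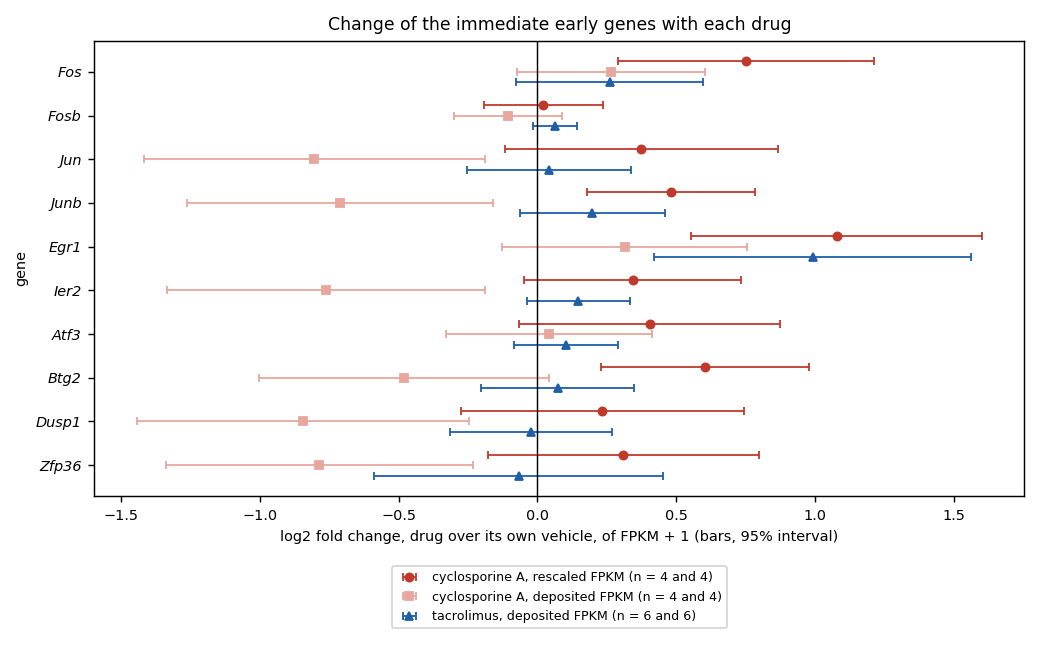
Log2 fold change of FPKM + 1, drug over its own vehicle (horizontal axis), with 95% intervals for each gene (vertical axis), for cyclosporine A on rescaled (dark red) and deposited (light red) FPKM, n = 4 and 4, and for tacrolimus (blue), n = 6 and 6. Egr1 is at 1.08 and 0.99 with the drugs on the comparable scaling, and the 2 scalings of the cyclosporine A data put Fosb, Jun, Junb, Ier2, Btg2, Dusp1 and Zfp36 on opposite sides of 0.

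A ratio of 2 members within a library does not depend on the scaling between libraries, and Jun, the member with the most fragments, was taken as the partner. The choice was made after the values were seen, and no test was attached. Among the tacrolimus table's libraries the ratio of Egr1 to Jun was 0.0720 to 0.0960 with vehicle and 0.101 to 0.456 with tacrolimus. Vehicle libraries were close together, and all 6 tacrolimus libraries lay above them. Of the 15390 genes with a ratio to Jun in every library, 0.0325% were higher without overlap, and none of the other 8 members was. In the cyclosporine A table the Egr1 ratio was 0.0512 to 0.139 with saline and 0.129 to 0.492 with the drug, and the Fos ratio 0.0203 to 0.106 and 0.0681 to 0.231. Both overlapped through cyclosporine A replicate 3, the library with the highest Jun. The groups also overlapped for the other 6 ratios taken there. There 0.407% of 12296 genes were higher without overlap. The mean log2 ratio of Egr1 to Jun differed by 1.53 with cyclosporine A and by 1.17 with tacrolimus, and that of Fos to Jun by 1.73 and 0.40. The last value was 0.26 without tacrolimus replicate 6, and leaving out any 1 library gave 0.26 to 0.58.

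**Figure D4:**
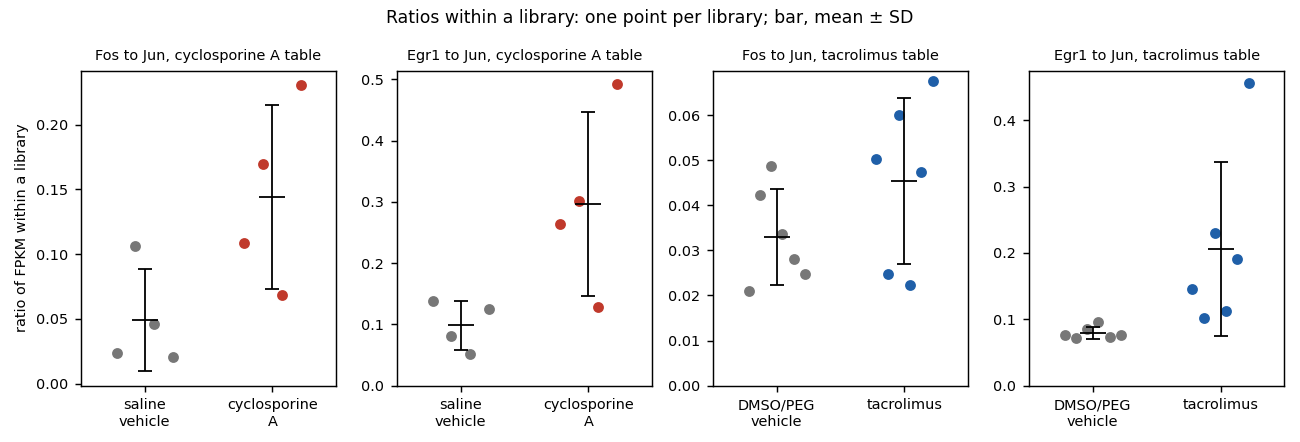
Ratio of Fos and of Egr1 to Jun within each library (vertical axis, ratio of FPKM) for both tables, 1 point per library with mean ± SD bars. Only the ratio of Egr1 to Jun in the tacrolimus table shows no overlap, with 0.0720 to 0.0960 in vehicle and 0.101 to 0.456 in tacrolimus libraries.

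On the log2(FPKM + 1) scale the members varied more between libraries of a group than most genes tested. This scale compresses the scatter of low-level genes, and the genes compared were not matched for level. The residual SD is the scatter of log2(FPKM + 1) around the group means. Its median over the members was 0.35 for the cyclosporine A libraries and their controls, against 0.21 for all genes tested, and 8 of 10 members were above the all-gene median. For tacrolimus and its vehicle the values were 0.25 and 0.15, and 9 of 10 members were above. Egr1 stood at percentile 97.1 and Zfp36 at 96.3 of all genes for scatter in the tacrolimus table, whereas Fosb, whose low level compresses this scale, stood at percentile 0.491. Counting error took a different part of it from member to member. For Zfp36 in the DMSO/PEG vehicle the coefficient of variation was 48.0% where counting gives 2.00%, and for Egr1 with tacrolimus it was 68.1% where counting gives 3.47%. For Junb with cyclosporine A it was 8.67% where counting gives 5.13%, and for Fosb in the DMSO/PEG vehicle 21.5% where counting gives 22.8%. Without cyclosporine A replicate 4 the members' median residual SD was 0.22 against 0.19 for all genes, 6 of 10 were above the all-gene median, and Egr1 moved from percentile 86.4 to 32.6.

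Replicate 4 lay above the cyclosporine A group mean for 9 of 10 members and replicate 2 for 1 of 10. In the tacrolimus table, vehicle replicate 2 and tacrolimus replicate 6 each lay above their group mean for 9 of 10, and vehicle replicate 4 for 1 of 10. With group means removed, Pearson's r between pairs of members was above 0 in 35 of 45 pairs in the cyclosporine A table (median 0.42, from −0.79 for Jun and Atf3 to 0.93 for Fosb and Zfp36, 8 libraries). It was above 0 in 31 of 45 pairs in the tacrolimus table (median 0.23, from −0.52 for Fosb and Dusp1 to 0.79 for Dusp1 and Zfp36, 12 libraries). These pairs share libraries and are a description. Neither these counts nor those above a group mean have a share over all genes beside them. They therefore do not set the members apart from other genes.

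Fos and Egr1, both targets of SRF, were among 9 pairs of Fos with another member examined in each table. For this pair in the tacrolimus table Pearson's r was 0.74 (permutation p = 0.0107, 2-sided, libraries permuted within groups) and Spearman's rho 0.57 (permutation p = 0.0761). Without the 2 libraries farthest from the median of Fos, r was 0.39, over a narrower range of Fos, and on leaving out any 1 library it was 0.59 to 0.80. In the cyclosporine A table r was 0.60 (exact permutation p = 0.233) and rho 0.40 (exact permutation p = 0.389), and r turned to −0.58 without replicate 4. Other pairs had a higher r there, up to 0.75 for Fos and Zfp36, and in the tacrolimus table Btg2 (0.69) and Zfp36 (0.49) had a higher r with Fos than Egr1 without the 2 farthest libraries. Adjusted over the 9 relations of the tacrolimus table, the permutation p of the r of 0.74 was 0.0962 and that of its rho 0.259, so neither passed 0.05.

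**Figure D5:**
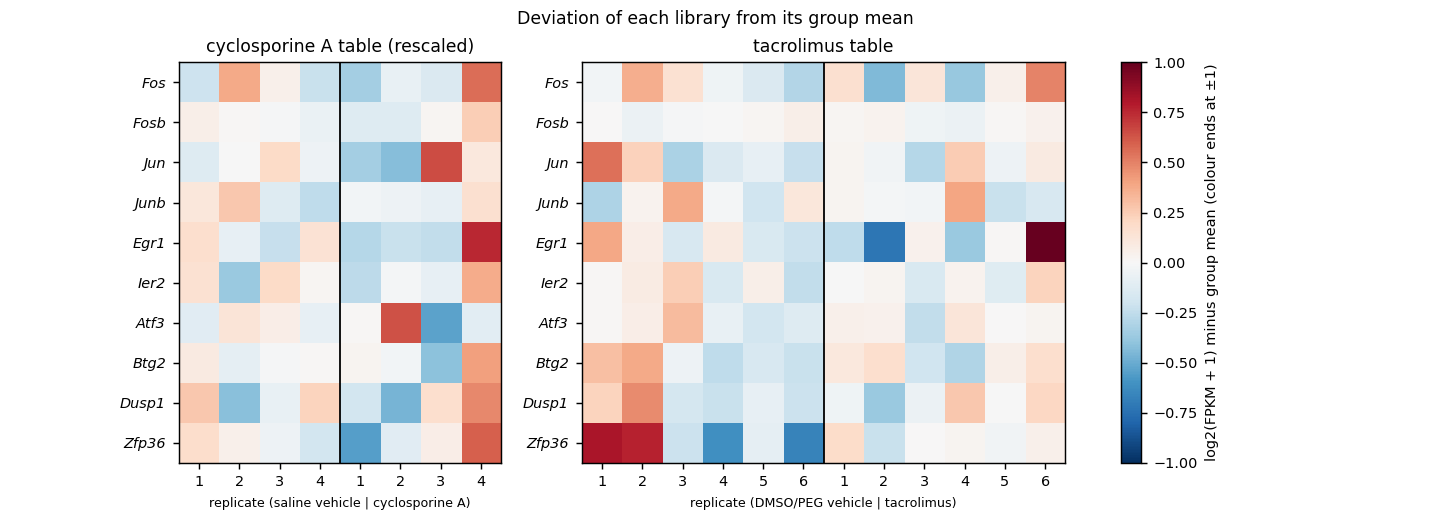
Log2(FPKM + 1) of each gene (rows) minus its group mean, for each library (columns, by replicate, groups divided by a line), red above and blue below the group mean, with the colour scale ending at ±1. Cyclosporine A replicate 4, vehicle replicate 2 and tacrolimus replicate 6 are above the mean for 9 of 10 genes each.

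The genes whose scatter was most like the members' mean in both tables were chosen by the lower of the 2 Pearson correlations, with group means removed, among 9679 genes. They were Pltp (r = 0.90 over 8 libraries and 0.85 over 12), Tcf7l2 (0.84 and 0.84), Gadd45b (0.88 and 0.82), Plat (0.91 and 0.80) and Tns2 (0.78 and 0.89). Gadd45b is a growth-arrest and stress gene of the rapid feedback list below, and Plat is tissue plasminogen activator. The points share libraries, depth and scaling.

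Other genes of the early response were read from 6 lists. Among the 23 other rapid feedback genes 1 rose with cyclosporine A on rescaled FPKM, Errfi1, a feedback inhibitor of the EGF receptor, where 0.327% of all genes were called higher. It had 8.06, 7.21, 7.24 and 6.86 with saline and 15.2, 13.3, 24.3 and 21.6 with cyclosporine A. No library overlapped, and the log2 fold change was 1.20 (SE 0.18, limma adjusted p = 0.0252). Its adjusted p was 0.0363 without cyclosporine A replicate 4. The call was lost on leaving out any 1 saline library or cyclosporine A replicate 1 or 3 (adjusted p up to 0.0989) and with no filter on low values (0.0749), and on the deposited scaling its log2 fold change was −0.029 (adjusted p = 0.924). With tacrolimus Errfi1 was 174 ± 60.8 against 155 ± 37.9 FPKM, vehicle first (SD, n = 6; log2 fold change −0.14, adjusted p = 0.934), a fold change that was −0.0053 without vehicle replicate 1 and −0.25 without vehicle replicate 3. The difference between the drugs was 1.33 (SE 0.29, adjusted p = 0.0228 by the limma-based test of the difference), and it was not called without saline replicate 4 (adjusted p = 0.0699) or with deposited cyclosporine A values (0.11, adjusted p = 0.793). The next of that list by p, Gadd45a, had 19.1 ± 1.97 and 28.9 ± 4.84 (SD, n = 4; 0.57, limma adjusted p = 0.0858).

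In the other lists nothing passed with cyclosporine A on rescaled FPKM. Of 15 secreted or effector early genes 13 were tested, 5 had an unadjusted p under 0.05 and 9 lay above 0, where 16.2% and 50% of all genes did. Plaur, the urokinase receptor, had the smallest p (means of 0.294 with saline and 1.03 with cyclosporine A in rescaled FPKM, log2 fold change 0.65, limma adjusted p = 0.115), followed by Sgk1, a kinase of sodium transport (means of 9.47 and 17.7, log2 fold change 0.75, limma adjusted p = 0.181). Of the other early transcription factors 14 of 18 were tested and Klf6 alone had an unadjusted p under 0.05 (means of 0.841 and 2.00, log2 fold change 0.68, limma adjusted p = 0.131), with Id3 next (0.30, adjusted p = 0.435). Among 8 tested AP-1 partners Mafg and Batf3, small leucine-zipper proteins, had 0.34 (adjusted p = 0.272) and 0.61 (adjusted p = 0.281). The upstream kinases and SRF, TCF and CREB factors lay above 0 in 5 of 20, with Rps6ka3 (−0.35, adjusted p = 0.233) and Mapk3, the kinase ERK1 (−0.28, adjusted p = 0.234), lower without overlap, as were 6.1% of all genes. Of 11 heat shock genes 3 lay above 0, and Hspd1 (−0.29, adjusted p = 0.258) and Hspe1 (−0.29, adjusted p = 0.396) had the smallest p. The list medians ran from −0.095 for the heat shock genes to 0.13 for the transcription factors.

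With tacrolimus none of the 6 lists held a call. An unadjusted p under 0.05 was found for 8.58% of all genes and for 6 of the 23 rapid feedback genes, led by the MAP kinase phosphatases Dusp5 (7.71 ± 1.19 FPKM with vehicle and 10.3 ± 1.40 with tacrolimus, log2 fold change 0.38, limma adjusted p = 0.203) and Dusp2 (1.93 ± 0.44 and 3.11 ± 0.79, log2 fold change 0.49, limma adjusted p = 0.221). Both had vehicle and drug ranges that overlapped. The smallest p of the other lists belonged to Mafk and Batf3 (−0.19 and −0.30, adjusted p = 0.532 and 0.583), Hspe1 and Dnaja1 (−0.25 and −0.20, adjusted p = 0.403 and 0.651), Csrnp1 and Ier3 (−0.19 and −0.16, adjusted p = 0.662 and 0.757), Plk2 and Ccn2 (0.13 and −0.49, adjusted p = 0.662 and 0.792) and Rps6ka1 and Mrtfa (0.13 and 0.12, adjusted p = 0.681 and 0.718). The list medians lay between −0.042 and 0.067, where the median of all genes was −0.000325.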

How the data were processed

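Whole-kidney bulk RNA-seq of rats was taken from the 2 tables the authors deposited. The deposited values are FPKM per gene, fragments per kilobase of gene, scaled for depth. HISAT2 and the rn6 build are named in the submitters' processing notes, and the counting program, strand setting and annotation release are not given in the sources used here. Without a stated strand, overlapping and antisense reads cannot be told apart.

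Fragments behind each FPKM were recovered from the values, whole within 0.01 fragments for 100% of tacrolimus values and 74.6% of cyclosporine A values with the listed gene length. A further 4441 genes of the cyclosporine A table, Fosb and Atf3 among them, came out whole with a shorter length. Its FPKM was divided by median-of-ratios size factors (rescaled FPKM). The scaling of the tacrolimus table already follows such factors. Replicates differed beyond counting noise (chi-square per degree of freedom 17.6 to 197).

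Genes with 10 fragments at the median library size in as many libraries as the smaller group, and 15 in total, were tested with limma 3.58.1 (R 4.3.3) on log2(FPKM + 1), a pseudocount of 1, with group alone in the model, moderated variances with a mean trend, and Benjamini-Hochberg adjustment over all genes, called at an adjusted p of 0.05. The difference between drugs used both standard errors with Satterthwaite degrees of freedom. The fits were also run on simulated data with known changes in better-covered genes, the same scatter setting for every gene and no outlying libraries. That run does not cover the low-level members or libraries that stand apart. Intervals are at 95%. Covariation used all 576 arrangements or 100000 draws.

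The named genes are all 10 members, each list gene called (up to 4 per list and comparison, otherwise the 2 of smallest p) and the 5 genes of most similar scatter. The members and lists were chosen with earlier results of these data known. Promoters are from RefSeq (GRCr8).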

Additional observations from a re-analysis of the deposited data

Results flagged for a closer look

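Within a group of 4 or 6 libraries, 4 of 40 sets of member values held a library farther from its neighbours than 95% of samples would be, where chance gives about 1 in 20. Egr1 had a rescaled FPKM of 4.85 in cyclosporine A replicate 4, with the next library at 1.96. It had an FPKM of 17.3 in tacrolimus replicate 6, with the next at 6.71. Junb had 41.0 in tacrolimus replicate 4, with the next at 31.5. Atf3 was low in tacrolimus replicate 3, at 0.682 with the next at 1.01.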

How the results depend on the processing

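The deposited scaling, which turned the sign of Fosb, Jun, Junb, Ier2, Btg2, Dusp1 and Zfp36, is not among the rescaled alternatives counted next. With cyclosporine A on rescaled FPKM, 160 of 170 single-gene alternatives kept direction and call, and 9 of 10 members never changed sign. Fosb did, at −0.059 with a pseudocount of 0.1, −0.020 with array weights, −1.26 with voom and −1.42 with voom and quality weights (an alternative added after the data were seen), and from −0.061 to 0.065 when 1 library was left out. Of the members 1, Egr1, was called with array weights, voom, and voom with quality weights, and 0 to 1 when 1 library was left out. All genes called numbered 82, against 1 with no filter on low values, 153 with array weights, 265 with voom, 280 with voom and quality weights, and 1 to 140 when 1 library was left out. On deposited FPKM, Atf3 turned to −0.10 with a pseudocount of 0.1 and −0.19 with voom, ran from −0.18 to 0.17 when 1 library was left out, and 1 to 7 members were called in the same settings, beside 9872 to 11178 genes.

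With tacrolimus, no member was called under 21 alternatives, and 77 genes were called with array weights and 121 with voom and quality weights, against 47. Leaving out 1 library gave −0.021 to 0.15 for Jun, −0.078 to 0.071 for Dusp1, −0.20 to 0.10 for Zfp36, 0.16 to 0.35 for Fos, 0.12 to 0.27 for Junb, 0.067 to 0.17 for Atf3 and 0.023 to 0.15 for Btg2. With array weights 4 members had an unadjusted p under 0.05, beside 1866 of 15493 genes. With voom and quality weights 4 did, beside 1955 genes. The members' median was 0.18 with a pseudocount of 0.1 and with voom, and 0.23 with voom and quality weights. For the difference between the drugs, deposited cyclosporine A values gave 10068 calls and 4 members, with Jun at −0.85, Junb −0.91, Egr1 −0.68, Ier2 −0.91, Atf3 −0.063, Btg2 −0.55, Dusp1 −0.82 and Zfp36 −0.72. Leaving out 1 library gave 27 to 267 calls, −0.17 to 0.34 for Egr1 and −0.12 to 0.00311 for Fosb. For cyclosporine A and saline, the members' median residual SD ran from 0.22 to 0.38 and r of Fos with Egr1 from −0.58 to 0.77. The causes of these shifts were not tested.

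The replicate number did not pair libraries: same-numbered libraries had correlations of −0.15 to 0.21 for cyclosporine A with saline, and −0.15 to 0.18 for tacrolimus with DMSO/PEG. With a replicate block, 6 genes were called with cyclosporine A on rescaled FPKM (Errfi1 not, at an adjusted p of 0.0653), 10633 on deposited FPKM (4 members, Junb at an adjusted p of 0.0695), 44 with tacrolimus and 180 for the difference, with no member called in the others. Depth limits Fos, Fosb and Atf3 most in the cyclosporine A table.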
